A study of Drosophila melanogaster with 6 samples.

Results

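The mitochondrial ribosomal protein genes of Drosophila melanogaster were followed in female and male midgut. They were taken as every identifier in the count tables whose current FlyBase symbol begins with mRpL or mRpS and a number. Of 73 current symbols that fit this rule, 71 were matched among the 15682 identifiers in the tables, 47 of them for the large and 24 for the small subunit. mRpS5 and mRpS34 were not analysed here. Of the 71 genes, 70 had enough reads to be tested, and mRpL53 had no counted read.

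RNA was sequenced from 3 female and 3 male libraries, each made from 30 dissected midguts. All flies were virgin w1118 adults, a white-eyed laboratory strain, aged 15 days and kept at 29 °C, so the strain, age, mating state and temperature are common to both sexes. The names of the count tables of both sexes also carry the letters ESG, which the labels do not explain, and the strain given here is that of the labels. The libraries were made from total RNA of whole midguts with an mRNA kit that keeps the strand, and in such bulk RNA fewer cells of a type and less RNA per cell cannot be told apart. Nothing in the labels says that the replicates of a sex were separate cultures of flies, and the spread that the p-values rest on may therefore be technical.

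Mitochondria carry their own ribosome, built of RNAs encoded in the mitochondrial genome and of proteins that are all encoded in the nucleus, made in the cytosol and imported. It translates the few proteins of the mitochondrial genome, which are core subunits of the respiratory chain and of ATP synthase. Some of its proteins have counterparts in bacterial ribosomes, and others are found only in mitochondria. In the fly midgut, respiratory function in stem cells and enterocytes is tied to tissue renewal and ageing.

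The libraries held between 23825935 and 38406746 counted reads. The male X-chromosome RNA roX1, a part of the dosage compensation complex, had 0.493 ± 0.287 CPM (counts for each 1000000 counted reads) in females and 587 ± 111 CPM in males (SD, n = 3 each), so all 6 libraries matched their sex labels. Markers of enterocytes and midgut summed to between 54605 and 71692 CPM in female libraries and between 65215 and 69677 CPM in male libraries. The like sums hide unlike genes. Mal-A1, the 1 of 7 tested that was called, had 8417 to 11719 CPM in females and 19960 to 24396 CPM in males. The log2 fold changes of female over male of alphaTry and betaTry were 0.25 and 0.25, and neither was called. Summed markers of enteroendocrine cells were 434 to 527 CPM in females and 651 to 797 CPM in males. Of the 7 tested, CCHa2, CCHa1 and Tk were called higher in males. CCHa2 alone had 154 to 203 CPM in females and 275 to 399 CPM in males. AstC, Dh31 and pros leaned the same way without being called, and NPF had a log2 fold change of 0.01. Summed markers of visceral muscle were 506 to 1230 CPM in females and 743 to 1393 CPM in males. Those of stem cells and enteroblasts were 17.1 to 18.2 CPM in females and 16.5 to 22 CPM in males. Of the last list, 4 of 6 genes were matched. Those not matched were esg and Dl, so the sum rests on Sox21a, E(spl)mbeta-HLH, Su(H) and klu and leaves the level of esg and Dl unknown. Of RNA from other tissues, 5 of the 6 fat body markers were detected, at a summed 54.1 to 291 CPM in females and 7.96 to 27.6 CPM in males, while Fbp1 was at 0 in all 6 libraries. This list holds the yolk protein genes Yp1, Yp2 and Yp3. Yp1 had 145, 24.9 and 23.2 CPM in females and at most 4.72 CPM in males. apolpp did not lean to females as these did, with 24.9, 7.06 and 6.46 CPM in females and 5.62, 17.3 and 15.2 CPM in males. Among the females, Yp1 and apolpp were both highest in replicate 1. Lsp2 had at most 10 reads in any library. The sums thus join genes with unlike differences between the sexes, and the amount of fat body RNA was not tested. Male replicate 3 alone held all 4 accessory gland markers, with 513 reads of Acp36DE and 101 to 120 reads of each of the other three.

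Female and male midguts did not differ detectably in any mitochondrial ribosomal protein gene. None of the 70 tested genes passed an adjusted p of 0.05 in edgeR's quasi-likelihood test in either direction, beside 9.39% of all 8941 tested genes, 3.87% called higher in females and 5.53% called higher in males. At an unadjusted p under 0.05 there was 1 of the 70, mRpL16, beside 21% of all tested genes. DESeq2 called 0 of the 70 (11.6% of all genes), with 0 at an unadjusted p under 0.05 (20.4%), and limma-voom called 0 (9.73%), with 1 at an unadjusted p under 0.05 (21.7%). The fitted log2 fold changes of female over male ran from -0.43 to 0.39, so the largest difference was 1.35-fold. Their median was 0.03, against -0.02 over all tested genes, with 39 above 0 and 31 below. A positive value was found in 47.2% of all tested genes. The 95% intervals of all 70 genes lay within a log2 change of 1 in either direction, which is 2-fold, and those of 13 genes lay within 0.5, so that a difference of more than 2-fold falls outside each gene's interval while smaller ones often do not. These intervals are not adjusted for the number of genes.

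**Figure D1:**
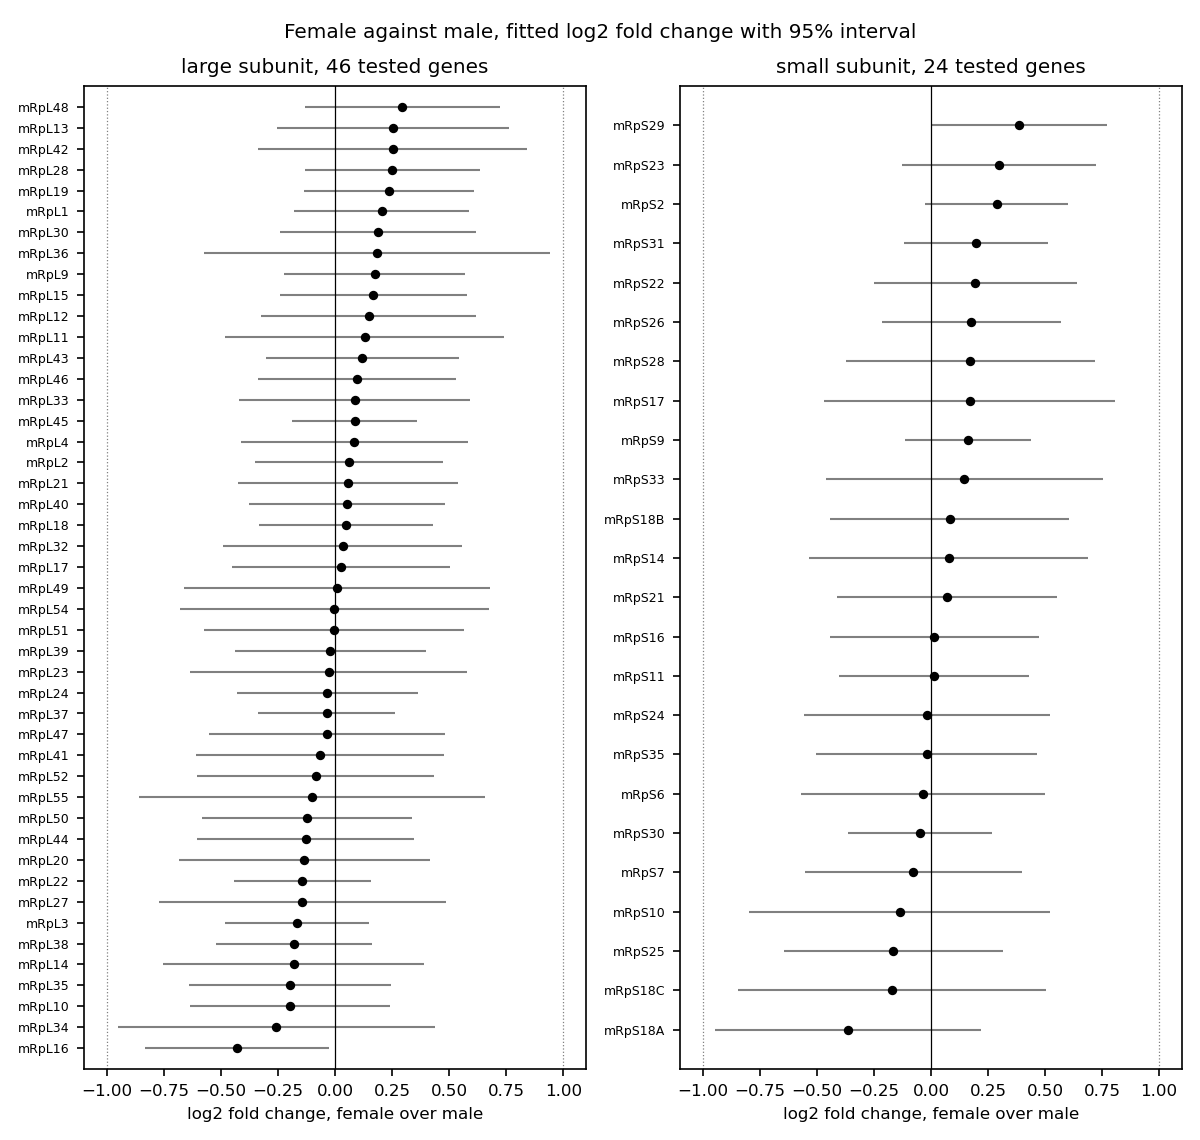
Fitted log2 fold changes of female over male with their 95% intervals for the 46 tested large subunit genes and the 24 tested small subunit genes, each gene on its own line. Points spread to both sides of 0, from mRpL16 at -0.43 to mRpS29 at 0.39, and no interval reaches the dotted lines at a log2 change of 1.

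The 3 libraries of one sex all lay above those of the other in 3 genes. These were mRpS9 and mRpS2, higher in every female library (background 12.4% of all tested genes), and mRpL16, higher in every male library (background 13.8%). mRpL16 encodes the counterpart of the bacterial protein that lies beside the tRNA-binding groove of the large subunit. The gene (FBgn0023519) had 12.1, 14.9 and 14.7 CPM in the female libraries, against 15.6, 17.4 and 23.2 CPM in the male libraries. The highest female library and the lowest male library were close together, and male replicate 3 lay well above the other five. Its log2 fold change was -0.43 ± 0.18 (SE), with an edgeR adjusted p of 0.201. This X-linked gene shares 82 of its 1076 exon bases with arm on the opposite strand.

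mRpS2, whose bacterial counterpart sits on the solvent side of the small subunit, had 18.5, 18.7 and 18.9 CPM in female libraries, against 14.2, 14.8 and 16.9 CPM in male libraries. The female values were almost level, and every male value lay below them. The log2 fold change was 0.29 ± 0.14, with an edgeR adjusted p of 0.284. mRpS9, a protein of the small subunit head, had 41.3, 39.9 and 38.6 CPM in females and 38.0, 35.4 and 33.7 CPM in males. The sexes were separated by a narrow gap, and the log2 fold change was 0.16 ± 0.12 with an edgeR adjusted p of 0.551. A stretch of 325 of its 1293 exon bases lies opposite ArgRS-m.

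The largest fitted difference towards females was that of mRpS29, the fly counterpart of DAP3, a GTP-binding small subunit protein linked to apoptosis in mammals. The gene (FBgn0034727) had 25.2, 30.2 and 20.8 CPM in female libraries, against 17.7, 17.6 and 23.0 CPM in male libraries. Male replicate 3 lay above female replicate 3, so the sexes overlapped. The log2 fold change was 0.39 ± 0.18, with an unadjusted p of 0.0504 and an adjusted p of 0.239 in edgeR. Next came mRpS23, with 12.6, 12.4 and 11.3 CPM in females and 7.64, 10.3 and 11.6 CPM in males, and mRpL48, with 9.32, 12.0 and 10.9 CPM in females and 7.16, 9.45 and 9.66 CPM in males. In mRpS23 1 male library and in mRpL48 2 male libraries lay within the female range, and both fold changes were 0.30 on the log2 scale. The 4 genes after mRpS2 were mRpL13, mRpL42, mRpL28 and mRpL19, at log2 fold changes of 0.25, 0.25, 0.25 and 0.23. Of the 671 exon bases of mRpL13, 236 are shared with CG10602 on the same strand, a gene with mean levels of 257 ± 12.2 CPM in female libraries and 272 ± 38.6 CPM in male libraries (SD, n = 3 each).

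Towards males, mRpL16 was followed by mRpS18A, one of 3 fly homologues of the bacterial S18 protein. It had 12.2, 10.9 and 7.41 CPM in females and 8.89, 12.8 and 17.4 CPM in males, a log2 fold change of -0.36 ± 0.26 with an edgeR adjusted p of 0.516. The sexes overlapped broadly. The log2 fold change was -0.10 without male replicate 3, the highest library, and -0.18 without female replicate 3, the lowest. Its paralogues mRpS18B and mRpS18C had log2 fold changes of 0.08 ± 0.24 and -0.17 ± 0.31. mRpL34 had 5.76, 4.84 and 5.67 CPM in female libraries, against 4.43, 4.81 and 10.2 CPM in male libraries. Here a single male library stood far above the other five. The fitted log2 fold changes of mRpL10, mRpL35, mRpL14 and mRpL38 lay between -0.20 and -0.18.

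By subunit, the 46 tested large subunit genes had a median log2 fold change of 0.02, with 24 above and 22 below 0. The 24 small subunit genes had a median of 0.07, with 15 above and 9 below. The 41 genes with bacterial-type numbers (mRpL1 to mRpL36 and mRpS2 to mRpS21) had a median of 0.05, and the 29 tested genes with higher, mitochondrial numbers had a median of -0.00. The 11 X-linked genes (mRpL3, mRpL14, mRpL16, mRpL22, mRpL30, mRpL33, mRpL38, mRpL49, mRpS14, mRpS25 and mRpS30) had a median of -0.14, with 4 above and 7 below 0, beside 0.05 for all tested X-linked genes. The 59 tested autosomal genes had a median of 0.05, beside -0.03 for all tested autosomal genes. None of these divisions held a gene that passed the test.

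Levels were compared between genes only per length, as CPM per kilobase of merged exon over all 6 libraries. The genes were close to one another on this scale. Their median was 18.8 CPM per kb, with an interquartile range of 16 to 25, and 65 of the 70 lay between 10 and 40. Medians were 18.5 CPM per kb for the large subunit and 21.1 for the small subunit. The highest was mRpL33 at 45.6 CPM per kb, and after it came mRpL24 at 43.2, mRpL12 at 40.8, mRpL28 at 40.5, mRpS7 at 39.95 and mRpL35 at 37.1. mRpL24 is the counterpart of a bacterial protein at the opening of the exit tunnel, and mRpL12 is the stalk protein that recruits translation factors. The lowest was mRpL21 at 7.09 CPM per kb, after mRpL44 at 10.8, mRpL48 at 12.3, mRpS14 at 12.6, mRpL19 at 12.8 and mRpS24 at 13.0. The merged exons of mRpL21 hold 1696 bases, of which 603 are coding, so its rank depends on the exon length taken. Its mean before division by length was 12.0 CPM, above that of mRpL34 at 5.95 CPM. The highest and lowest genes differed 6.44-fold, a figure that depends in part on the exon length of mRpL21. In 68 of the 69 neighbouring pairs in this order the ranges over the 6 libraries overlapped. The exception was mRpL44 and mRpL21, the last pair. Genes sorted by level lie close to their neighbours by construction, so these overlaps bear only on how firm the order is.

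**Figure D2:**
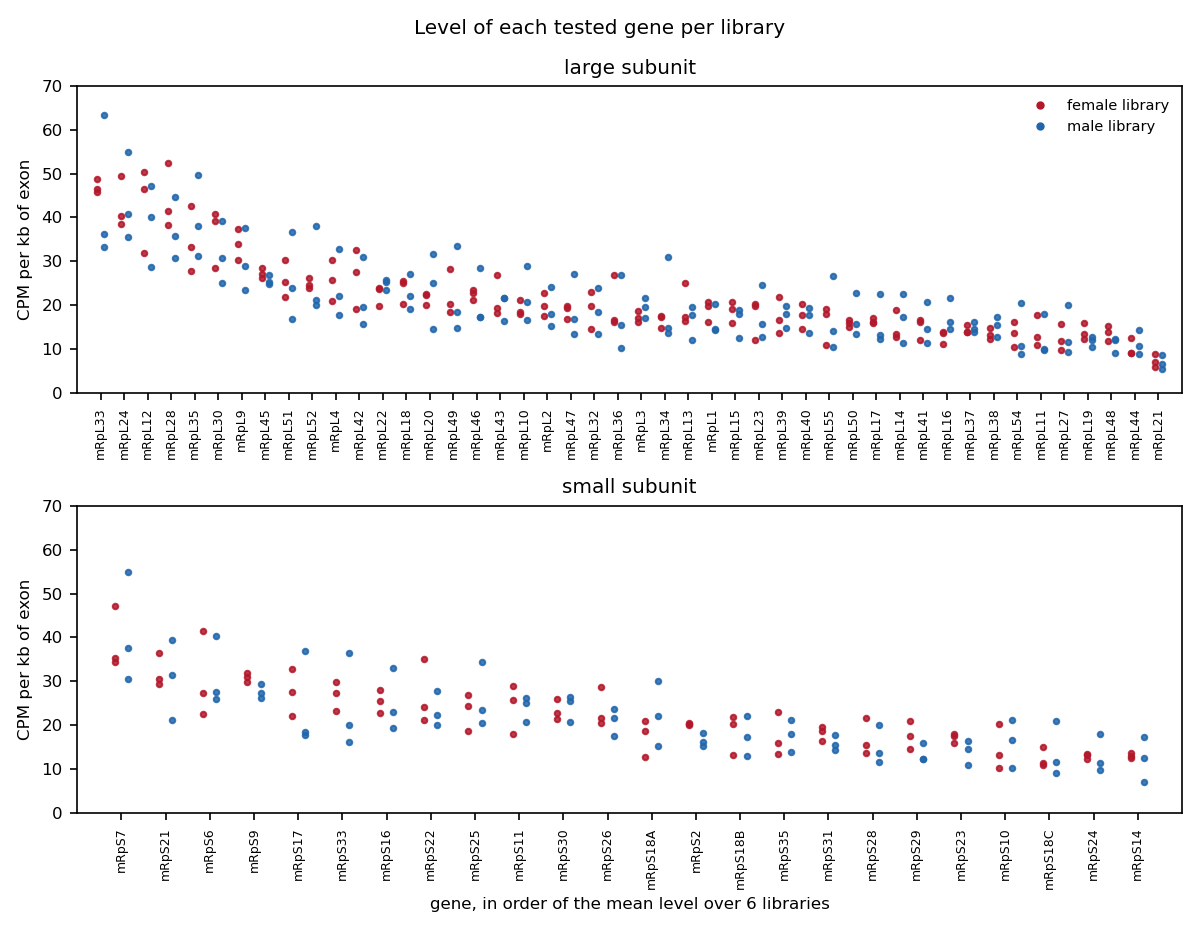
Level of each tested gene in every library, in CPM per kb of exon, with large subunit genes in the upper and small subunit genes in the lower panel, ordered by mean level, female libraries as red and male libraries as blue points. Most genes sit between 10 and 40 CPM per kb and female and male points intermingle, with the wider scatter among the male points.

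A few genes known from work on growth or disease lay within this range. mRpL12, needed for growth driven by cyclin D and Cdk4 in flies, had 34.3, 37.1 and 23.5 CPM in females and 21.2, 29.7 and 34.9 CPM in males. mRpS7, a small subunit head protein, had 32.3, 43.2 and 31.5 CPM in females and 28.1, 34.4 and 50.4 CPM in males. Both sets overlapped broadly, with log2 fold changes of 0.15 ± 0.21 and -0.08 ± 0.21. mRpL55, essential for viability in flies, had 8.16, 8.73 and 4.995 CPM in females and 4.78, 6.46 and 12.2 CPM in males. In each of these 3 genes, male replicate 1 was the lowest and male replicate 3 the highest of the males. mRpS29, the fourth, is given above.

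mRpL53 is the exception among the 71 genes, with 0 counts in all 6 libraries, which allows a level of up to 0.0781 to 0.126 CPM, taken as 3 counts of each library's total and covering counting error only. All 829 of its exon bases are shared with CG33155 on the same strand, which had 29, 35 and 40 counts in females and 30, 37 and 102 in males. How the counting treated a read that fell in both genes is not given in the sources used here. Exons of 42 of the 71 genes overlap another gene, in 39 of them only on the opposite strand. The kit kept the strand, but whether the counting used it is not given. The overlap covered at least 25% of the exon bases in mRpL13, mRpL48, mRpL53, mRpS9, mRpS14, mRpS21 and mRpS24. The 29 genes without any overlap had a median log2 fold change of -0.02.

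The genes tended to move together between libraries of one sex, most clearly among the males. Summed over the 70 genes, expression was 1278, 1459 and 1125 CPM in the female libraries and 1017, 1179 and 1559 CPM in the male libraries. The male libraries thus held both the lowest and the highest sum, with the females between them. The means were 1287 ± 167 CPM in females and 1251 ± 278 CPM in males (SD, n = 3 each). As a share of all counts, the genes made up 0.126 ± 0.0105% in females and 0.127 ± 0.0264% in males. Each gene was then set against its own mean over the 6 libraries, on the scale of log2(CPM + 0.5). The median deviation of the 70 genes was 0.03, 0.22 and -0.14 in female replicates 1 to 3 and -0.34, -0.09 and 0.38 in male replicates 1 to 3. Over all tested genes these medians stayed between -0.02 and 0.02.

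**Figure D3:**
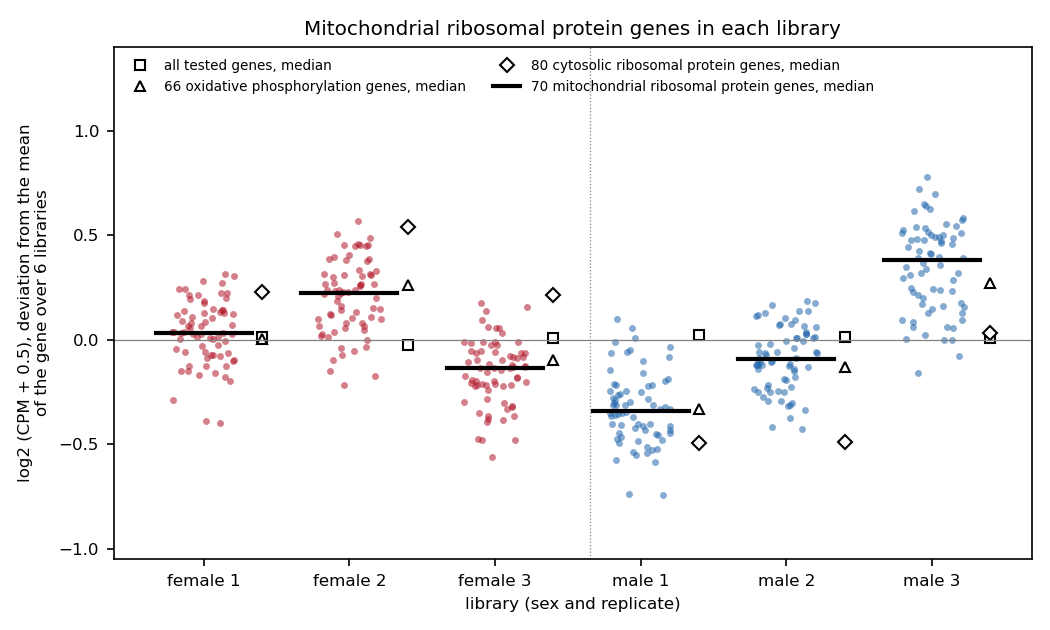
Deviation of each of the 70 genes from its own mean over the 6 libraries, on the log2(CPM + 0.5) scale, by library, with female libraries on the left and male libraries on the right. Bars mark the medians of the 70 genes, which run from -0.34 in male replicate 1 to 0.38 in male replicate 3, and open symbols mark the medians of all tested genes, of oxidative phosphorylation genes and of cytosolic ribosomal protein genes.

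Male replicate 3 was the highest of the 6 libraries in 44 of the 70 genes and male replicate 1 the lowest in 50, beside 19.8% and 16% of all tested genes. Within the males, replicate 3 was highest in 66 genes (36% of all tested genes) and replicate 1 lowest in 60 (32.4%). In females, replicate 2 was highest in 48 (35.7%) and replicate 3 lowest in 51 (31.2%). In 69 of the 70 genes, male replicate 3 exceeded male replicate 1, beside 47.3% of all tested genes, and the median ratio was 1.58-fold. mRpS9 was the exception.

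The spread was accordingly wider than in genes of like CPM. The median coefficient of variation (CV) over the 3 libraries was 16.8% in females and 25.9% in males. Over the 3847 tested genes in the same CPM range it was 12.4% in females and 13.5% in males. Those genes were not matched for length. Beside all tested genes of like length, the female CV was lower under 600 bases (14.9% against 23.3%), from 800 to 1000 (12.1% against 16.7%) and from 1000 to 1300 (13.0% against 16.2%). It was higher from 600 to 800 (21.4% against 18.5%) and, in 5 genes, from 1300 to 2000 (18.5% against 13.4%). The male CV was higher in each of these bands, as under 600 bases (37.9% against 29.7%). The members' counts, 138 to 2109 per library, would by counting error alone give a median CV of 4.40%. The CV was larger in males than in females in 59 of the 70 genes, beside 52.1% of all tested genes. On the log2 scale the median range over the 3 libraries of a sex was 0.45 in females and 0.70 in males, beside 0.37 in females and 0.41 in males over all tested genes. The female spread depended on the scaling. Without scaling beyond the library total, the median CV of the 70 genes was 12.6% in females and 24.1% in males. The CV of the genes of like CPM is not given for that setting.

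At one end stood mRpL55, with a CV of 27.6% in females and 49.6% in males, mRpL36, with 7.997, 13.3 and 8.26 CPM in females and 5.04, 7.65 and 13.3 CPM in males, and mRpL54, with 11.1, 9.32 and 7.07 CPM in females and 6.10, 7.34 and 14.0 CPM in males. The highest male value of each was more than that of any female library or level with it. mRpS10, a small subunit head protein, had 10.2, 15.9 and 8.09 CPM in females and 8.06, 12.9 and 16.6 CPM in males, with a CV of 35.2% in females and 34.1% in males. At the other end, mRpL45, which in human mitochondria anchors the ribosome to the inner membrane beside the exit tunnel, had 34.5, 36.1 and 33.3 CPM in females and 32.2, 31.5 and 34.2 CPM in males. Its CV was 4.10% in females and 4.21% in males, and its log2 fold change was 0.09 ± 0.12. mRpL37 was similarly even, with 21.1, 18.9 and 19.0 CPM in females and 18.7, 21.9 and 19.8 CPM in males. In neither gene did male replicate 3 lie above every female library.

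The spread among males moved with gene length. Mitochondrial ribosomal protein genes are short, with a median of 783 exon bases (range 327 to 2078) beside 2062 for all tested genes. Across the 70 genes, log2 exon length and the log2 ratio of male replicate 3 over male replicate 1 had a Pearson r of -0.62 and a Spearman rho of -0.65. Across the 8573 tested genes with a length these were -0.34 and -0.43. Genes of one library share its depth and handling and are not independent, so no p is given. For the 12 genes under 600 bases the median log2 ratio was 0.93, beside 0.37 for all 309 tested genes of that length. From 600 to 800 bases it was 0.70 in 27 genes (0.39 in all 440), from 800 to 1000 bases 0.65 in 10 (0.29 in all 546), and from 1000 to 1300 bases 0.49 in 15 (0.20 in all 892). In each of these bands the mitochondrial ribosomal protein genes lay above the median of all genes of like length. Log2 exon length went with the CV of males, at a Pearson r of -0.67, and hardly with that of females, at r = -0.14.

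**Figure D4:**
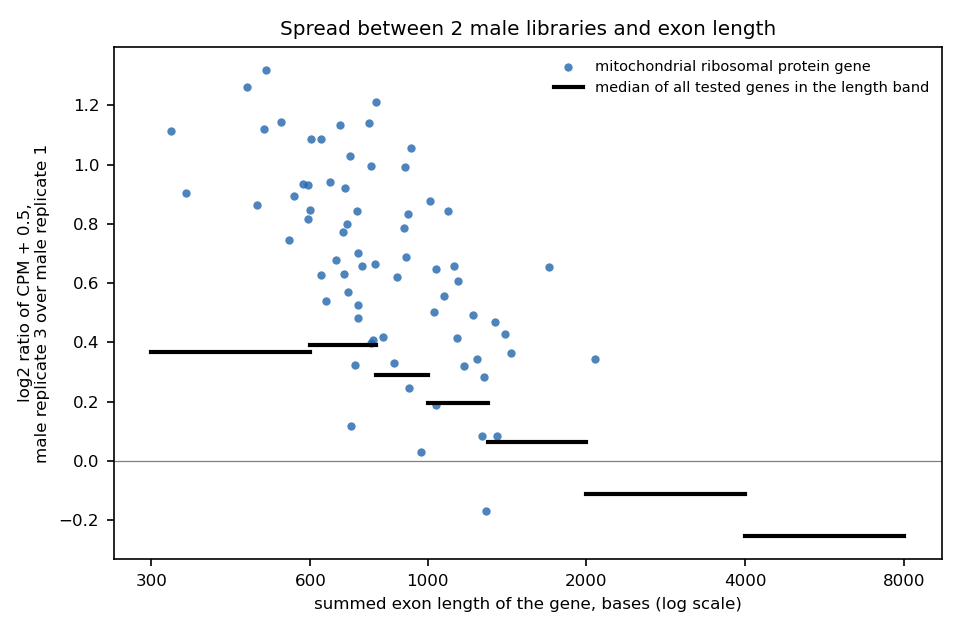
Log2 ratio of CPM + 0.5 in male replicate 3 over male replicate 1 against summed exon length (log scale), each point one of the 70 genes, with black bars for the median of all tested genes in each band of length. The ratio of the 70 genes is highest for the shortest, and the points lie mostly above the bars, which stand at 0.37 under 600 bases, 0.39 from 600 to 800 bases and lower in each longer band, down to -0.25 at 4000 bases and over.

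When each library's trend with exon length was taken out, an alternative chosen after seeing the data, the pattern became smaller. The summed expression was then 1303, 1374 and 1177 CPM in the female libraries and 1092, 1242 and 1365 CPM in the male libraries, and the median CV was 11.9% in females and 15.4% in males. Male replicate 1 stayed lowest. By this sum female replicate 2 was the highest, narrowly above male replicate 3, whereas by the median deviation male replicate 3 stayed highest, at 0.16 beside 0.13 in female replicate 2. edgeR still called 0 of the 70 genes (12.5% of all genes with a length), with 3 at an unadjusted p under 0.05 (24.6%). These were mRpL16, mRpS29 and mRpS2, at adjusted p of 0.0992, 0.118 and 0.161.

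The direction of the genes as a group turned with single libraries of either sex. Without male replicate 3, 63 of the 70 genes had a positive fold change (48.2% of all genes tested in that fit), the median log2 fold change was 0.26, and 10 genes had an unadjusted p under 0.05 (21.5% of all genes), though edgeR still called 0 (9.84%). The smallest adjusted p was 0.0910, for mRpS17, a counterpart of a bacterial small subunit protein. It had 19.6, 23.3 and 15.7 CPM in females and 12.6, 13.2 and 26.3 CPM in males. Both lower male values lay under all the female values and the third lay above them. Its log2 fold change was 0.60 ± 0.20 without male replicate 3 and 0.17 ± 0.28 with it. Female libraries lay wholly above the 2 remaining male libraries in 22 genes, beside 18.7% of all tested genes. Without male replicate 1 the median turned to -0.11, with 22 of the 70 genes positive (48.8% of all genes). It was also below 0 without female replicate 2, at -0.06 with 26 positive, and without male replicate 2, at -0.01 with 32 positive, while it was 0.13 with 52 positive without female replicate 3 and 0.04 with 40 positive without female replicate 1. The accessory gland markers named above summed to 22 CPM in male replicate 3 and to at most 0.0829 CPM in any other library, and testis markers to 4.06 CPM there and at most 0.427 CPM elsewhere. The part of these in the level of the mitochondrial ribosomal protein genes was not tested.

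Among genes that work with the mitochondrial ribosome, the 3 ribosomal proteins with other symbols did not pass the test either. tko, the homologue of the S12 protein of the decoding centre, whose fly mutants are bang-sensitive, had 23.1, 20.1 and 18.5 CPM in females and 10.4, 14.2 and 21.9 CPM in males, with an edgeR adjusted p of 0.395. CRIF, named for its homology to a human protein at the exit tunnel, had 36.8, 39.8 and 31.4 CPM in females and 26.0, 32.0 and 30.0 CPM in males, with an edgeR adjusted p of 0.283. bonsai, the S15 homologue, needed for gut function in flies, had 22.1 ± 3.12 CPM in females and 22.6 ± 2.80 CPM in males (SD, n = 3 each). The first 2 leaned towards females, with log2 fold changes of 0.41 ± 0.24 and 0.30 ± 0.15, but in both a male library lay within the female range. Without male replicate 3, tko passed the test, at a log2 fold change of 0.74 ± 0.19 and an edgeR adjusted p of 0.0347.

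Of 12 tested mitochondrial translation factors and mRNA carriers, 0 passed (9.39% of all tested genes), and the median log2 fold change was 0.06. The smallest p-values belonged to OXA1L, the insertase of the inner membrane, and the elongation factors mEFG1 and mEFTu1, at log2 fold changes of 0.30, 0.25 and 0.21. Of 17 tested mitochondrial aminoacyl-tRNA synthetases and relatives, 0 passed (9.39% of all tested genes), with a median of 0.02. Slimp, a relative of seryl-tRNA synthetase, had the smallest p, with 4.60, 5.72 and 5.61 CPM in females and 6.55, 8.38 and 9.79 CPM in males, a log2 fold change of -0.63 ± 0.22 and an edgeR adjusted p of 0.112. No female library reached the lowest male one. Of 3 genes listed with ribosome assembly, known here by CG numbers alone, 0 passed (9.39% of all tested genes).

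PolrMT, the RNA polymerase of mitochondria, was the single gene of the mitochondrial lists that passed. It was 1 of 12 tested genes of mitochondrial transcription and RNA processing, beside 9.39% of all tested genes. It had 38.1, 31.4 and 30.7 CPM in female libraries, against 26.5, 18.6 and 20.2 CPM in male libraries. All females lay above all males. Its log2 fold change was 0.62 ± 0.17, with an edgeR adjusted p of 0.0416. The call was lost without scaling beyond the library total (adjusted p = 0.0751), without female replicate 1 (0.162), 2 (0.0755) or 3 (0.0747) and without male replicate 2 (0.18) or 3 (0.0860), all in edgeR. The next smallest p-values belonged to mTerf3 and rswl, at log2 fold changes of 0.26 each. The 15 protein and ribosomal RNA genes of the mitochondrial genome are listed at 0 in all libraries. How alignment and counting treated reads of that genome is not given in the sources used here. These zeros therefore leave the level of its RNAs unknown.

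A pair of larger lists shows how far the library pattern is shared. The 66 tested oxidative phosphorylation genes, encoding nuclear subunits of the respiratory chain and ATP synthase, included 0 that passed (9.39% of all tested genes). Their median log2 fold change was 0.09, with 55 above 0 (47.2% of all tested genes). Their median deviations were 0.00, 0.26 and -0.10 in female replicates 1 to 3 and -0.33, -0.13 and 0.27 in male replicates 1 to 3. As in the mitochondrial ribosomal protein genes, male replicate 1 was lowest. Male replicate 3 and female replicate 2 were nearly level at the top, highest in 31 and 32 of the 66 genes. These libraries were highest in 44 and 19 of the 70 mitochondrial ribosomal protein genes, and in 19.8% and 16% of all tested genes. Of the 80 tested cytosolic ribosomal protein genes, by contrast, 34 were higher in females (3.87% of all tested genes). All 80 had a positive fold change (47.2%), with a median of 0.64. Their median deviations were 0.23, 0.54 and 0.21 in females and -0.49, -0.49 and 0.03 in males. Male replicate 3 was again the highest male, but here every female median lay above every male one. That count of 34 stood beside 346 of all genes called higher in females. It was 11, 9 and 16 without female replicates 1, 2 and 3, beside 171, 231 and 219 of all genes. Without male replicates 1, 2 and 3 it was 20, 3 and 75, beside 419, 164 and 383. With the replicate number as a block it was 18, beside 261 of all genes. DESeq2 called 58 of 86 tested, beside 493 of all genes. With the length trend taken out the count was 68, beside 509 of all genes.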

How the data were processed

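Gene-level counts of paired-end RNA-seq reads were deposited by the authors as 1 table per library. Per the submitters' processing notes, TopHat2 2.0.11, HTSeq and the dm3 build were used. The annotation release, the strand setting and the treatment of reads with several positions are not stated in the sources used here. Current symbols were matched to 15002 of 15682 identifiers, and exon lengths and overlaps were taken by identifier from a newer annotation, BDGP6, with no coordinates carried over. Sex was tested with edgeR 4.0.16 (R 4.3.3), by quasi-likelihood with a robust prior, TMM scaling, filterByExpr by sex (minimum count 10, minimum total 15) and Benjamini-Hochberg adjustment over all 8941 tested genes, two-sided. CPM values are TMM-scaled, and the SE is the absolute log2 fold change over the square root of F. The biological CV was 23.7%. Replicates of a sex differed by more than sampling noise (chi-square of counts over its degrees of freedom, 30.6 to 212). The members and lists were chosen with earlier results of these data known. Genes are named where they had an unadjusted p under 0.05, were among the 8 largest or 8 smallest fold changes, the 6 most or least abundant per length, or the 4 most or least variable, did not overlap between the sexes, overlapped another gene, could not be tested, or belonged to a set of 4 well-studied genes. In each pathway list these are the 3 smallest p-values. mRpS17 and the paralogue mRpS18B were named after their values were seen. Alternatives were RLE scaling, no scaling, scaling without digestive enzyme and cytosolic ribosomal protein genes, no filter, a filter of 5 CPM in 3 libraries, DESeq2 1.42.0, limma-voom 3.58.1, a replicate block, leaving out each library and, added later, offsets from a lowess trend on exon length (span 0.3).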

Additional observations from a re-analysis of the deposited data

How the results depend on the processing

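edgeR, DESeq2 and limma-voom called 0 of the 70 genes in either direction in every alternative listed above, and the lowest adjusted p among them was 0.0910. The 32 named genes kept their side of the threshold in 480 of 480 values. The median log2 fold change was 0.03, and it was 0.04 with RLE scaling, -0.02 without scaling, 0.01 with the 5 CPM filter and 0.05 with the length trend taken out. Leaving out 1 library gave medians from -0.11 (male replicate 1) to 0.26 (male replicate 3). The number of genes whose libraries did not overlap between the sexes was 3 (26.2% of all tested genes), 5 with the length trend taken out (30.6%) and from 3 to 23 when 1 library was left out. It was 4 (34.4%), 3 (37.5%) and 9 (34.8%) without female replicates 1, 2 and 3, and 7 (36.6%), 5 (32.2%) and 23 (38.7%) without male replicates 1, 2 and 3. For all genes, the 346 called higher in females became 539 at an adjusted p under 0.1, and ran from 164 (without male replicate 2) to 419 (without male replicate 1) when 1 library was left out, with 171 without female replicate 1 and 219 without female replicate 3. Each fit without 1 library also had fewer samples, and the cause of these changes was not tested. The 29 genes with no exon overlap summed to 534 CPM in females and 538 CPM in males. Same-numbered libraries did not deviate together (r = -0.117, -0.199 and -0.0992), beside r from -0.0662 to 0.218 for libraries of unlike number. Deviations from a mean of 3 libraries are not independent, so these values cannot tell whether same-numbered libraries were prepared together. The labels do not say so, and the main test used no replicate block. With the replicate block, 0 of the 70 genes were called, the median was 0.06, and 676 of all genes were called, against 840 without it. With 3 libraries a sex and this spread, differences under 2-fold were often not detectable.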
